A study of Mus with 9 samples.

Results

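The genes of the phagocyte NADPH oxidase were followed across mouse bone marrow RNA: Cybb, Cyba, Ncf1, Ncf4, Rac2 and Hvcn1. They were taken by symbol from a table of read counts, and all 6 were found among its 54532 genes and passed the filter on low counts that left 15660 tested genes. Every library came from marrow of lethally irradiated C57BL/6 mice given fetal liver cells of embryonic day 12.5. Those donor cells carried a conditional AML1-ETO knock-in tagged with mCherry and a retroviral MSCV-IRES-EGFP vector, and were transplanted as mCherry+ GFP+ cells beside supportive cells. The vector held cyclin D2 with the Thr280Ala substitution (CCND2mut), unchanged cyclin D2 (CCND2wt) or no insert (Vec). Each label had 3 libraries: CCND2mut 1, 2 and 3, CCND2wt 2, 3 and 4, and Vec 1, 2 and 4. The AML1-ETO allele and the vector backbone are thus shared by all 3 groups, and no group lacks them. What drives the conditional allele, the age and sex of the mice, the time of harvest and any sort of the marrow before RNA extraction are not stated in the labels, so host and supportive cells may be present.

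The phagocyte oxidase moves electrons from cytosolic NADPH across a membrane onto oxygen, and so makes superoxide in neutrophils, monocytes and macrophages. Its core is a membrane cytochrome of gp91phox, encoded by Cybb, and p22phox, encoded by Cyba. On stimulation p47phox (Ncf1) and p40phox (Ncf4) move from the cytosol to the membrane together with the GTPase Rac2. The proton channel Hvcn1 lets protons follow the electrons and so balances their charge. Loss of a core subunit causes chronic granulomatous disease in humans.

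Total counts were 15043755 to 17593634 per library. The gene named in the labels was checked first: Ccnd2 stood at 12.6, 58.2 and 51.1 CPM (the usual depth-scaled count) in the 3 CCND2mut libraries, and at 7.30, 9.29 and 11.1 CPM in CCND2wt, against 76.2, 79.1 and 86.2 CPM in Vec. The counts at the mouse gene thus went against the labels, and the labels do not state whether the transgene would be counted there. Every direction below is between libraries so labelled. Separate animals behind the libraries of a group are not stated, so the p-values measure the spread between these libraries, which may be technical. The 3 CCND2wt libraries lay closest to each other, at a chi-square per gene of 7 to 17.7 against 53.3 to 148 within the other groups. That is above counting noise, and they were counted as 3. Vec 1 stood apart from Vec 2 and Vec 4 in blood cell genes: 18 maturing neutrophil markers summed to 17020 CPM in Vec 1, and to 1060 and 1174 CPM in Vec 2 and Vec 4. In bulk RNA, fewer cells of a type and less RNA per cell cannot be told apart.

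Levels below are given per gene length, as CPM per kilobase of gene (FPKM), and differences between groups as log2 fold changes, each with a standard error (SE). A gene was called changed when its edgeR p-value, adjusted over all 15660 tested genes, was under 0.05. For CCND2mut against Vec, 3 of the 6 oxidase genes were called higher (Cyba, Ncf4 and Rac2) and 1 lower (Hvcn1). The same call was made for 24.9% of all tested genes in the higher and 26.9% in the lower direction. For CCND2wt against Vec, 1 was higher (Hvcn1) and 2 were lower (Ncf1 and Ncf4), where 9.71% of all genes were called higher and 9.05% lower. For CCND2mut against CCND2wt, 4 were higher (Cyba, Ncf1, Ncf4 and Rac2) and 1 lower (Hvcn1), where 23.2% of all genes were higher and 23.8% lower. The comparisons share libraries, so that they are not independent of each other. Cyba, Ncf4 and Rac2 were higher in CCND2mut than in Vec where Cybb was not called, and Hvcn1 was called in the opposite direction to Ncf4 in all 3 comparisons.

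**Figure D1:**
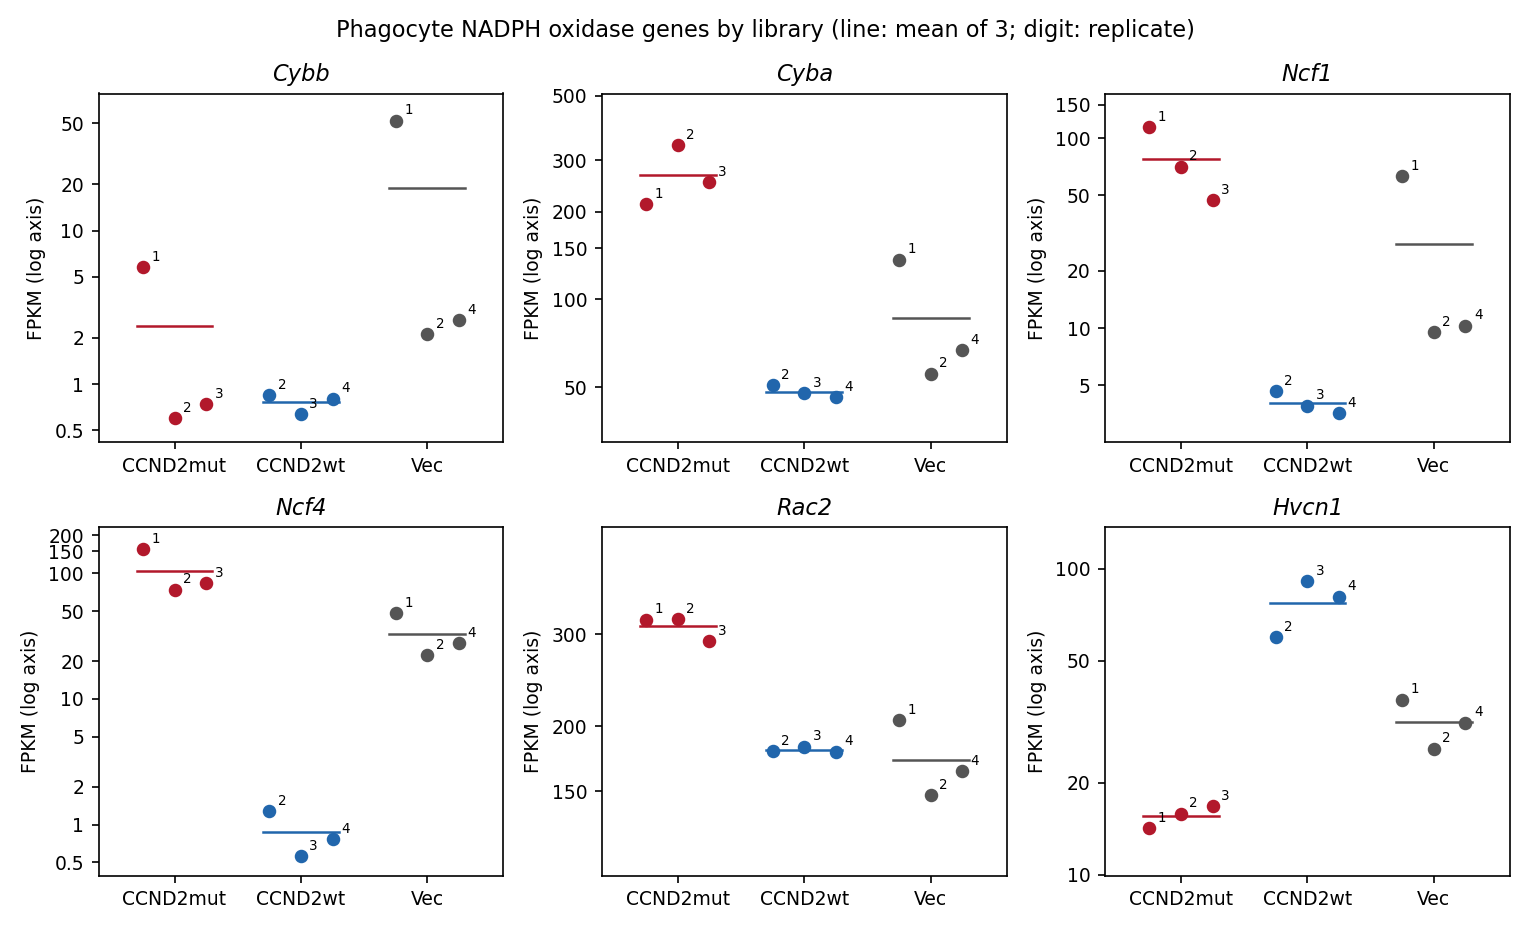
Level of each oxidase gene (FPKM, log axis) in the 3 libraries labelled CCND2mut, CCND2wt and Vec, with a line at each group mean and the replicate number beside each point. Cyba, Ncf4 and Rac2 lie highest in the CCND2mut libraries, Hvcn1 lies highest in CCND2wt, and Cybb stands at 52.1 FPKM in Vec 1 and at most 5.79 FPKM in every other library.

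Cybb (ENSMUSG00000015340; chromosome X, 9435252 to 9487771 on the minus strand in mm10) encodes the catalytic, electron-carrying subunit. It stood at 5.79, 0.598 and 0.743 FPKM in CCND2mut 1, 2 and 3, at 0.847, 0.634 and 0.805 FPKM in CCND2wt 2, 3 and 4, and at 52.1, 2.11 and 2.62 FPKM in Vec 1, 2 and 4. All 3 CCND2wt libraries lay below every Vec library, whereas the CCND2mut and Vec libraries overlapped because of CCND2mut 1. The log2 fold change was -2.99 for CCND2mut against Vec (SE 1.35, 95% interval -6.09 to 0.11, edgeR adjusted p = 0.0956) and -4.63 for CCND2wt against Vec (SE 1.48, adjusted p = 0.0611). Neither was called. DESeq2 gave no p for Cybb. Without Vec 1 these values were -0.01 (edgeR adjusted p = 0.997) and -1.60 (adjusted p = 0.24), and without CCND2mut 1 they were -4.82 and -4.63, both called (edgeR adjusted p = 0.039 and 0.0422). With Vec 1 and CCND2mut 1 both left out they were -1.8 and -1.60 (edgeR adjusted p = 0.00103 and 0.00261). The libraries left out there held the most Cybb of their groups, so the remaining spread is small by that choice. Against CCND2wt, Cybb in CCND2mut was at 1.64 (SE 1.35, interval -1.43 to 4.72, edgeR adjusted p = 0.347), and at -0.19 without CCND2mut 1.

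Cyba (ENSMUSG00000006519; chromosome 8, 122424776 to 122432930, minus strand) encodes the other chain of the cytochrome, which Cybb protein needs for its stability. It stood at 212, 339 and 252 FPKM in CCND2mut, at 50.6, 47.5 and 46.2 FPKM in CCND2wt, and at 137, 55.6 and 67.0 FPKM in Vec. The 3 groups did not overlap, with CCND2mut highest and CCND2wt lowest. The gene rose by 1.63 in CCND2mut against Vec (3.10-fold, SE 0.33, edgeR adjusted p = 0.00382) and by 2.48 against CCND2wt (5.57-fold, SE 0.34, adjusted p = 0.00061). Its value of -0.85 in CCND2wt against Vec (SE 0.33, interval -1.59 to -0.10, edgeR adjusted p = 0.103) was not called. The predicted gene Gm20388 spans all of Cyba on the opposite strand and was listed with 0 counts in every library.

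Ncf1 (ENSMUSG00000015950; chromosome 5, 134220053 to 134229625, minus strand) encodes p47phox, the organiser that docks the cytosolic subunits on p22phox. Its levels were 115, 71.0 and 47.3 FPKM in CCND2mut, 4.67, 3.90 and 3.58 FPKM in CCND2wt, and 63.3, 9.51 and 10.3 FPKM in Vec. CCND2mut lay above CCND2wt in every library, and Vec 1 reached into the range of CCND2mut while Vec 2 and Vec 4 did not. Ncf1 rose by 4.26 in CCND2mut against CCND2wt (19.2-fold, SE 0.80, edgeR adjusted p = 0.00285). It fell by 2.78 in CCND2wt against Vec (SE 0.75, edgeR adjusted p = 0.0368), a call lost under 9 of 21 other settings, among them the removal of any CCND2wt library (adjusted p = 0.115 to 0.133), and at -1.26 without Vec 1. For CCND2mut against Vec the value was 1.49 (SE 0.71, interval -0.14 to 3.11, edgeR adjusted p = 0.111). Without Vec 1 it was 2.97 and called (edgeR adjusted p = 0.000509). Part of the Ncf1 span, 44.9%, is shared with Gtf2ird2 on the opposite strand, which had 375 to 736 counts per library against 238 to 6930 for Ncf1. The labels state no strand setting for the counting, so reads of the shared stretch cannot be told apart.

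Ncf4 (ENSMUSG00000071715; chromosome 15, 78244801 to 78262580, plus strand) encodes p40phox, which binds phosphoinositides of the phagosome. It differed most between the CCND2 groups of the 6 genes. The libraries held 155, 74.2 and 83.4 FPKM in CCND2mut, 1.28, 0.561 and 0.763 FPKM in CCND2wt, and 48.3, 22.4 and 27.7 FPKM in Vec, with no overlap between any groups. In CCND2wt these levels rest on 20 to 49 counts per library. Ncf4 rose by 1.67 in CCND2mut against Vec (3.18-fold, SE 0.40, edgeR adjusted p = 0.00858). It fell by 5.23 in CCND2wt against Vec (37.5-fold lower, SE 0.49, edgeR adjusted p = 0.000772), and was 6.90 higher in CCND2mut than in CCND2wt (SE 0.52, adjusted p = 4.02e-05).

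Rac2 (ENSMUSG00000033220; chromosome 15, 78559167 to 78572783, minus strand) encodes the GTPase of the complex, found mainly in blood cells. By mean level per length it was the highest of the 6 genes in every group, at 320, 321 and 291.5 FPKM in CCND2mut, 179, 183 and 179 FPKM in CCND2wt, and 206, 148 and 164 FPKM in Vec. The CCND2mut libraries all lay above the others, and the CCND2wt libraries lay inside the range of Vec. Rac2 rose by 0.85 in CCND2mut against Vec (SE 0.14, edgeR adjusted p = 0.00114) and by 0.79 against CCND2wt (SE 0.14, adjusted p = 0.00178). The difference between CCND2wt and Vec was 0.06 (SE 0.14, interval -0.24 to 0.37, edgeR adjusted p = 0.78). The related GTPase Rac1, present in most cell types, was not called in any comparison. The ratio of Rac2 to Rac1, per length, was 4.46, 4.58 and 4.46 in CCND2mut, 2.27, 2.29 and 2.18 in CCND2wt, and 3.24, 2.61 and 2.26 in Vec. The labels do not state how reads matching several genes were treated, and the split of reads between such relatives is uncertain.

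Hvcn1 (ENSMUSG00000064267; chromosome 5, 122206804 to 122242297, plus strand) encodes the voltage-gated proton channel and is also known in B cells. It stood at 14.2, 15.9 and 16.8 FPKM in CCND2mut, at 59.8, 91.3 and 81.2 FPKM in CCND2wt, and at 37.4, 25.9 and 31.5 FPKM in Vec. No groups overlapped, and the order was the reverse of that of Cyba, Ncf1 and Ncf4. Hvcn1 fell by 1.01 in CCND2mut against Vec (2.02-fold lower, SE 0.19, edgeR adjusted p = 0.00232), and rose by 1.29 in CCND2wt against Vec (2.45-fold, SE 0.19, adjusted p = 0.0035). Between CCND2mut and CCND2wt it differed by -2.31 (SE 0.19, edgeR adjusted p = 5.73e-05). Tctn1 shares 12.5% of the Hvcn1 span on the opposite strand, with 303 to 511 counts per library against 834 to 5740 for Hvcn1.

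With the 3 CCND2wt libraries summed to 1 sample, a lone sample assumed to vary like the other groups, edgeR called 0 oxidase genes for CCND2wt against Vec (2 at an unadjusted p under 0.05). Against CCND2wt, the calls of Ncf1 and Rac2 in CCND2mut were also lost (edgeR adjusted p = 0.113 and 0.0981), while those of Cyba, Ncf4 and Hvcn1 were not. All 4 calls for CCND2mut against Vec held in each of the 21 other settings.

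**Figure D2:**
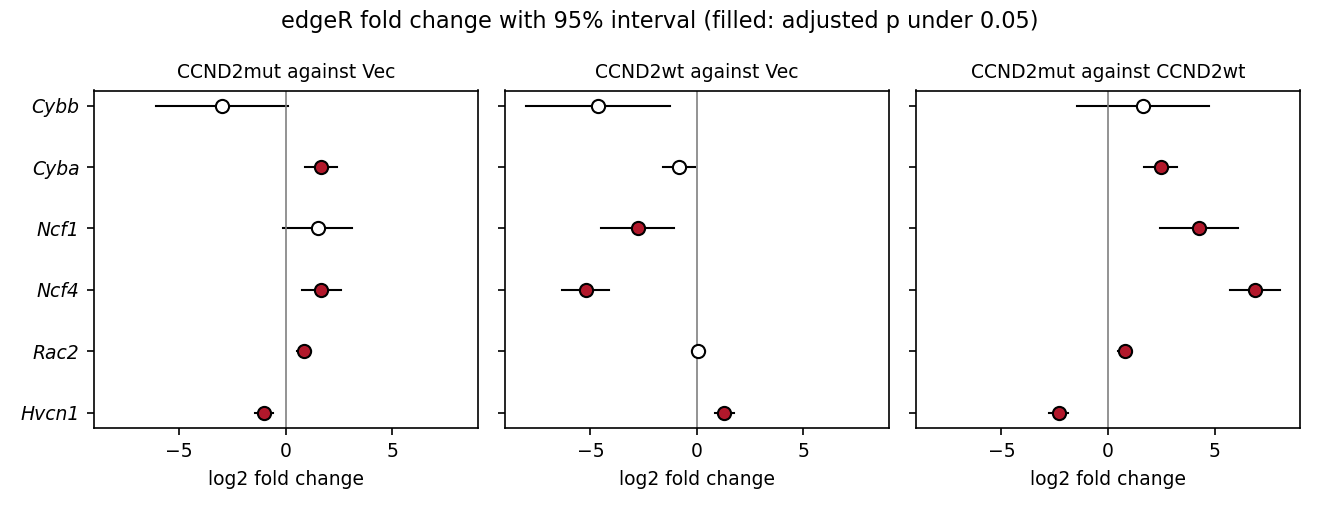
Log2 fold change of each oxidase gene with its 95% interval from edgeR, for CCND2mut against Vec, CCND2wt against Vec and CCND2mut against CCND2wt, with filled points for an adjusted p under 0.05. Hvcn1 and Ncf4 are called in opposite directions against Vec, Hvcn1 at -1.01 in CCND2mut and 1.29 in CCND2wt and Ncf4 at 1.67 and -5.23, and the Cybb intervals are the widest.

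The order of levels among the 6 genes differed between groups. In CCND2mut it ran, by mean FPKM, from Rac2 (311 ± 16.8, SD, n = 3) through Cyba (268 ± 64.9), Ncf4 (104 ± 44.5), Ncf1 (77.7 ± 34.3) and Hvcn1 (15.6 ± 1.32) to Cybb (2.38 ± 2.96). Libraries overlapped between Rac2 and Cyba and between Ncf4 and Ncf1. In CCND2wt the order was Rac2 (180 ± 2.20), Hvcn1 (77.4 ± 16.1), Cyba (48.1 ± 2.27), Ncf1 (4.05 ± 0.560), Ncf4 (0.869 ± 0.373) and Cybb (0.762 ± 0.113), of which Ncf4 and Cybb overlapped. In Vec, Rac2 (172 ± 29.8) and Cyba (86.5 ± 44.0) stood above Ncf4 (32.8 ± 13.7), Hvcn1 (31.6 ± 5.77), Ncf1 (27.7 ± 30.8) and Cybb (18.9 ± 28.7), and the last 4 overlapped. Cybb was last in all 3 groups by its mean.

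RNA of the partners relative to Cybb was set out within each library. The ratio of Cyba to Cybb, per length, was 36.7, 567 and 339 in CCND2mut, 59.8, 75.0 and 57.4 in CCND2wt, and 2.62, 26.4 and 25.6 in Vec. Every library labelled CCND2mut or CCND2wt had a higher ratio than every Vec library. The ratio of Ncf1 to Cybb was 19.8, 119 and 63.7 in CCND2mut, 5.51, 6.15 and 4.44 in CCND2wt, and 1.21, 4.52 and 3.93 in Vec. CCND2mut thus stood above both other groups, and CCND2wt overlapped Vec. Over both ratios and 3 comparisons, an exact two-sided permutation test gave p = 0.1 in 4 of 6, the smallest that 3 libraries against 3 allow, and adjusted p = 0.15 over the 6.

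**Figure D3:**
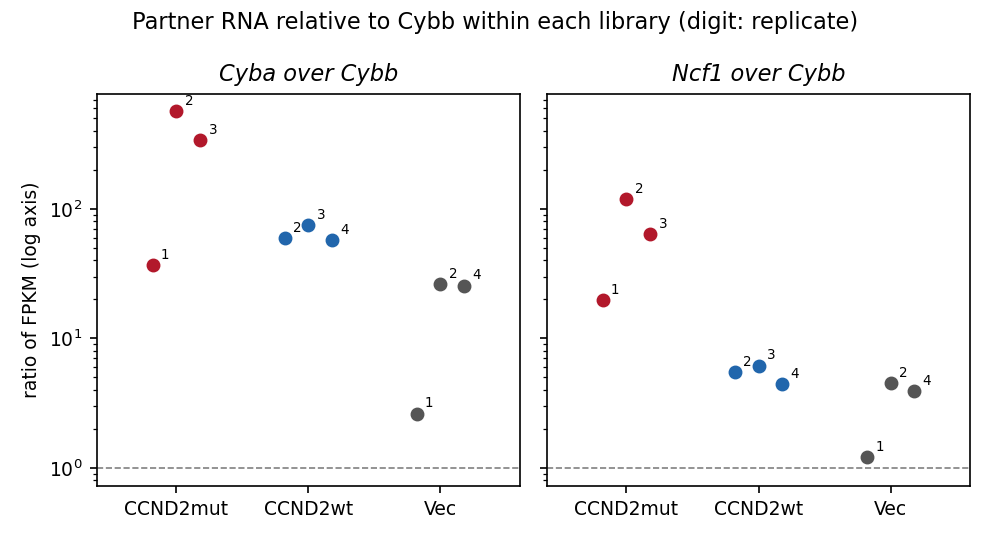
Ratio of Cyba and Ncf1 to Cybb in FPKM (log axis) in each library labelled CCND2mut, CCND2wt and Vec, with the replicate number beside each point and a dashed line at equal levels. Cyba exceeds Cybb in all 9 libraries, 567 times in CCND2mut 2 and 2.62 times in Vec 1, and Ncf1 comes nearest to Cybb in Vec 1, at 1.21 times.

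Across the 9 libraries Cyba, Ncf1 and Ncf4 ran together (Pearson r of log2(CPM + 1) of 0.838 to 0.932), Hvcn1 ran against them (r = -0.842 with Cyba, -0.855 with Ncf1 and -0.951 with Ncf4), and Cybb had r of 0.161 with Cyba, 0.476 with Ncf1 and 0.433 with Ncf4. Rac2 had r of 0.923 with Cyba, 0.817 with Ncf1, 0.639 with Ncf4, -0.693 with Hvcn1 and -0.017 with Cybb. These describe 9 libraries in 3 groups, and carry the differences between groups. Among 10243 other protein-coding genes that averaged 5 CPM or more, those most like Cybb were Ltf (r = 0.9888), Chil1 (0.9714) and Trak2 (0.9622). Ltf, lactoferrin of neutrophil secondary granules, stood at 286, 13.5 and 32.7 CPM in CCND2mut, at 41.4, 19.4 and 28.1 CPM in CCND2wt, and at 2347, 71.8 and 108.5 CPM in Vec. Those most like Cyba were Card6 (0.9939), Lcp1 (0.9934), an actin-bundling protein of leukocytes, and Adgre1 (0.9930), the macrophage antigen F4/80. Abtb2 (0.9975), the plasma protein gene Hp (0.9949) and Lrg1 (0.9942) were most like Ncf1, and Zfp992 (0.9904), Fgd3 (0.9879) and Sft2d2 (0.9847) most like Ncf4. Rac2 was closest to Rab27a (0.9948), a GTPase of granule release, the actin factor Dstn (0.9945) and the proteasome subunit Psmd4 (0.9935). Among the genes closest to Hvcn1 were the riboflavin transporter gene Slc52a3 (0.9800) and Lgals9 (0.9776).

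Other oxidase genes were sparse. Of 14 listed, 8 were tested, and 2 were higher and 2 lower in CCND2mut against Vec (median log2 fold change 0.04, against -0.03 for all tested genes). These shares are near the 24.9% and 26.9% of all tested genes. Higher were Prdx6, a peroxiredoxin known to aid oxidase activation (0.69), and the reductase Cyb5r4 (0.68), while Nox1 (-2.50) and Nox4 were lower. Nox4, a constitutively active relative of Cybb, had 0 counts in CCND2mut against 65 in Vec, and was at least 21.5-fold lower against a floor of 3 counts over the group. For CCND2wt against Vec, 1 of 8 was called, Prdx6 at -0.60 (median of the 8 genes -0.12), where 9.05% of all tested genes were lower. Cybc1, named after its values were seen, is the chaperone that Cybb protein needs to mature, and stood at 56.1, 43.5 and 50.3 CPM in CCND2mut, at 55.5, 52.7 and 55.1 CPM in CCND2wt, and at 66.0, 41.2 and 44.9 CPM in Vec. It was called in no comparison, with a value of -0.02 in CCND2mut against Vec (edgeR adjusted p = 0.933).

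The enzymes that supply NADPH, the electron donor, were mostly higher in the libraries labelled CCND2mut. All 12 tested of 14 listed were called against Vec, 10 higher and 2 lower (median 1.02). Pgd, an NADPH-making dehydrogenase of the pentose phosphate pathway, stood at 1078, 576 and 936 CPM in CCND2mut, at 72.4, 75.8 and 80.4 CPM in CCND2wt, and at 210.5, 99.3 and 114 CPM in Vec (2.61 for CCND2mut against Vec, SE 0.33, edgeR adjusted p = 0.000385). Idh1, the cytosolic isocitrate dehydrogenase, rose by 3.56 and H6pd by 1.14, while mitochondrial Idh2 fell by 0.77 and Aldh1l1 by 6.52. For CCND2wt against Vec, 1 of the 12 was called, Aldh1l1 at -1.62 (median of the 12 genes -0.175).

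Among peroxidases and other enzymes that use or remove oxidants, 11 of 23 tested genes were higher and 4 lower in CCND2mut against Vec (median 0.42). Gsr, which spends NADPH to regenerate glutathione, stood at 1121, 1717 and 1569 CPM in CCND2mut, at 31.1, 30.3 and 33.1 CPM in CCND2wt, and at 159, 26.4 and 40.5 CPM in Vec. It rose by 4.28 in CCND2mut against Vec (SE 0.65, edgeR adjusted p = 0.000974). Gpx3, a glutathione peroxidase, rose by 5.62 in CCND2mut and by 2.84 in CCND2wt against Vec, and catalase (Cat) fell by 1.86 in CCND2mut. In CCND2wt against Vec, 3 of 23 were higher and 2 lower (median -0.32). Txn1 and Prdx1 rose there by 0.59 and 0.51, and Gclc, of glutathione synthesis, fell by 0.89.

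Receptors that trigger the oxidase differed between the CCND2 groups, with 11 of 15 tested genes higher and the other 4 not called in CCND2mut against CCND2wt (median 2.87, against 0.02 for all tested genes). Against Vec, 4 were higher and 1 lower in CCND2mut (median 1.23), where 24.9% and 26.9% of all tested genes were called. In CCND2wt against Vec 4 were lower and the other 11 not called (median -1.44), where 9.05% of all genes were lower. Without Vec 1, a setting added after seeing the data, 10 were higher and 1 lower in CCND2mut, and 2 were lower in CCND2wt. With the CCND2wt libraries summed to 1 sample, 2 of 16 were higher in CCND2mut against CCND2wt, and the 4 lower calls in CCND2wt against Vec were lost. The immunoglobulin receptor Fcgr3 stood at 474.5, 1000 and 758 CPM in CCND2mut, at 103, 94.5 and 107.5 CPM in CCND2wt, and at 159, 93.4 and 114 CPM in Vec (2.61 for CCND2mut against Vec, SE 0.29, edgeR adjusted p = 0.000213). Clec7a, the beta-glucan receptor dectin-1, rose by 3.56 and Tnfrsf1a by 1.70 in CCND2mut, while Tnfrsf1b fell by 1.32. In CCND2wt the complement receptor C5ar1 fell by 4.82, and the integrin chains Itgam and Itgb2 by 3.16 and 2.47. The size of these falls leans on Vec 1. C5ar1 stood at 0.741, 0.453 and 0.330 CPM in CCND2wt, and at 40.1, 1.83 and 1.67 CPM in Vec 1, 2 and 4. In the same order, Vec held Itgam at 84.4, 11.5 and 9.87 CPM and Itgb2 at 238, 26.3 and 45.5 CPM. CCND2wt held 3.68 to 4.39 and 17.3 to 19.9 CPM of them.

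Of signalling genes between receptor and oxidase, 6 of 25 were higher and 5 lower in CCND2mut against Vec (median 0.07), no larger a share than the 24.9% and 26.9% of all tested genes. Among them were the Rac exchange factors Dock5 and Tiam1 at 1.90 and 1.47, and Plcb2 and Vav2 at -2.37 and -2.20. In CCND2wt against Vec, 1 was higher, Tiam1 at 0.96, and 6 were lower (median -0.45), among them Prex1, another Rac exchange factor (-0.61), and the kinase gene Prkcd (-0.70), whose protein phosphorylates p47phox. Of 13 ion transport genes, a list that holds Hvcn1, 3 were higher and 4 lower in CCND2mut against Vec (median 0.11). These shares are near the 24.9% and 26.9% of all tested genes. In CCND2wt against Vec 2 were higher and 2 lower (median -0.035), where 9.71% and 9.05% of all genes were called. The proton pump subunit Atp6v1a rose in both, by 0.78 and 0.49, and the potassium channel Kcnn4 fell by 0.965 in CCND2mut.

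Of 19 tested genes known to act on oxidase genes, 2 were higher and 11 lower in CCND2mut against Vec (median -0.68). They are transcription factors, except the histone deacetylase Hdac3. In CCND2wt against Vec 1 was higher, 4 were lower and 14 were not called (median -0.69). Spi1 (PU.1), which drives Cybb and Ncf1 in myeloid cells, stood at 197, 113 and 132 CPM in CCND2mut, at 36.1, 42.6 and 40.5 CPM in CCND2wt, and at 131, 78.2 and 74.1 CPM in Vec. It fell by 1.25 in CCND2wt against Vec (SE 0.27, edgeR adjusted p = 0.016), and its value of 0.64 in CCND2mut was not called (adjusted p = 0.0715). Cebpb fell by 1.85 in CCND2wt. The AP-1 subunit Junb fell in both, by 1.55 in CCND2mut and 1.40 in CCND2wt. In CCND2mut, Rela fell by 1.5, Cux1, a repressor of CYBB in human cells, by 0.68, and Hoxa9 by 5.87, while Gfi1 rose by 0.93 there and by 0.78 in CCND2wt. Irf8 and Irf1, known to activate CYBB in human cells and named after their values were seen, fell by 3.26 and 2.49 in CCND2mut against Vec. Cebpe, of the same list and also named with its values known, went the other way. It stood at 204, 112 and 216 CPM in CCND2mut, and at 40.1, 2.1 and 2.1 CPM in Vec.

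**Figure D4:**
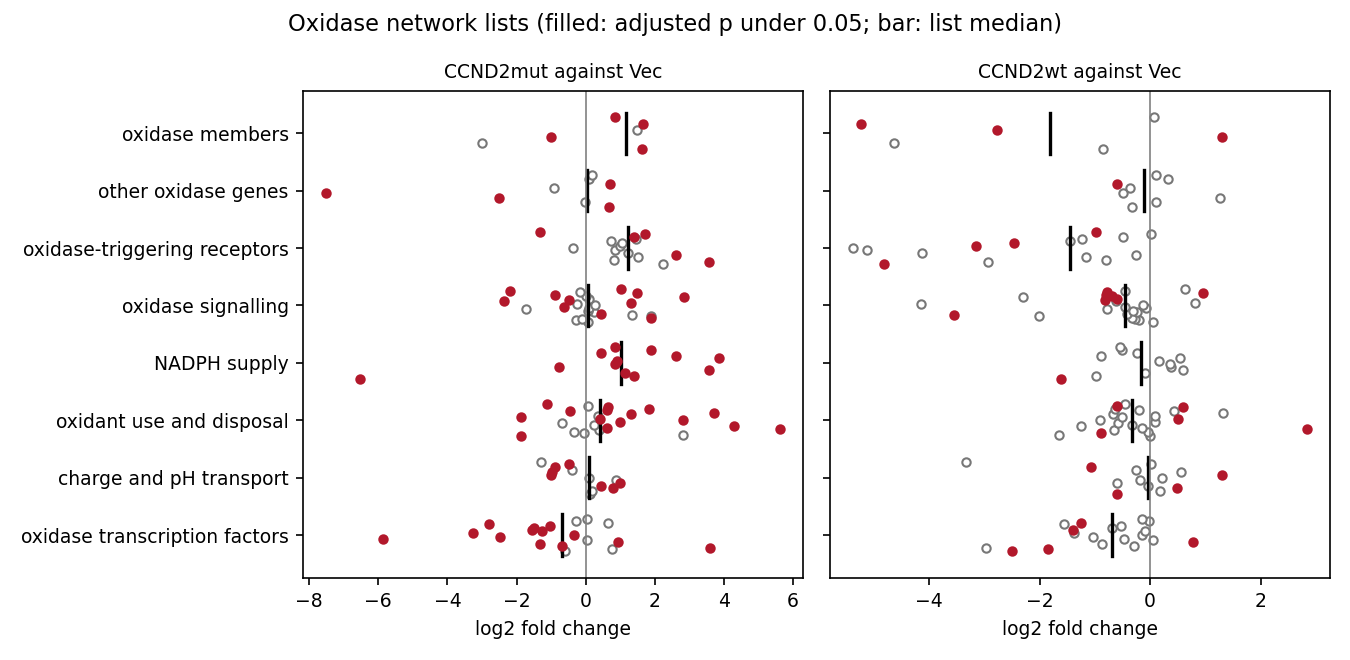
Log2 fold change of every tested gene in 8 lists around the oxidase for CCND2mut against Vec and for CCND2wt against Vec, with filled points for an edgeR adjusted p under 0.05 and a bar at each list median. The NADPH supply genes are all filled for CCND2mut (10 higher, 2 lower), and 1 of the 12 is filled for CCND2wt.

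Markers of the cells that carry the oxidase were summed in each library. Maturing neutrophil markers, all 18 detected in every library, summed to 7434 to 26650 CPM in CCND2mut, 409 to 532 CPM in CCND2wt, and 1060 to 17020 CPM in Vec. Of the 18, 2 were higher in CCND2mut against Vec, a smaller share than the 24.9% of all tested genes. In CCND2wt against Vec 5 were lower, where 9.05% of all genes were lower. The others were not called. Without Vec 1, 13 were higher in CCND2mut and 3 lower in CCND2wt. S100a9, the most abundant, stood at 7721, 1249 and 1639 CPM in CCND2mut, at 65.5, 35.9 and 49.9 CPM in CCND2wt, and at 3692, 124 and 144 CPM in Vec. Monocyte and macrophage markers summed to 3836 to 5045 CPM in CCND2mut, 191 to 214 CPM in CCND2wt, and 572 to 2041 CPM in Vec. All 18 were detected except Fcgr1, at 0 in CCND2mut 2. Of 17 tested, 5 were higher and 3 lower in CCND2mut against Vec (median -0.30), beside 24.9% and 26.9% of all tested genes. In CCND2wt against Vec 6 were lower and the other 11 not called, where 9.05% of all genes were lower. Promyelocyte markers summed to 6579 to 12070 CPM in CCND2mut, 2850 to 2975 CPM in CCND2wt, and 1603 to 2382 CPM in Vec, and 9 of 10 were higher in CCND2mut against Vec. For CCND2wt against Vec, 2 of the 10 were higher and 2 lower, with a median of -2.23. The CCND2wt sum was mostly Ctsg and Mpo, at means of 1438 and 1143 CPM. Elane stood at 2.17, 1.98 and 1.93 CPM in CCND2wt, and at 87.3, 5.70 and 5.19 CPM in Vec. CCND2mut and Vec 1 thus held most neutrophil and monocyte RNA, CCND2wt least, and the part of this in the levels of Cyba, Ncf1, Ncf4 and Rac2 was not tested. Cybb stood at 0.598 and 0.743 FPKM in CCND2mut 2 and 3 beside neutrophil sums of 7589 and 7434 CPM, where Vec 2 and 4 held 2.11 and 2.62 FPKM beside 1060 and 1174 CPM. Of 10243 genes compared over the 9 libraries, the closest to Cybb was Ltf (r = 0.9888), itself among the 18 markers. With Vec 1 and CCND2mut 1 both left out, 12 of the 18 were higher and 2 lower in CCND2mut against Vec. The libraries left out held the most Cybb of their groups. The part of neutrophil RNA in the Cybb levels was not tested. Lcn2 stood at 2675 and 1657 CPM in CCND2mut 2 and 3, against 34.2 and 44.2 CPM in Vec 2 and 4. Ltf was lower in CCND2mut 2 and 3 than in Vec 2 and 4, at the values given above. Csf3r was lower there too, at 202 and 87.0 CPM against 416 and 405 CPM. Another of the 18, Mmp9 (chosen with its values known), had 15.96 and 10.8 CPM in CCND2mut 2 and 3, against 12.6 and 13.1 CPM in Vec 2 and 4, so that those libraries overlapped.

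Sums of other lineages differed as well. Eosinophil markers, whose cells also carry the oxidase, summed to 280 to 536 CPM in CCND2mut, 37.0 to 59.6 CPM in CCND2wt, and 6.99 to 307 CPM in Vec, with Epx, Prg3, Ear1, Ear6 and Alox15 at 0 in Vec 2. B cell markers, of interest for Hvcn1, summed to 36.3 to 97.6 CPM in CCND2mut, 41.8 to 47.6 CPM in CCND2wt, and 151 to 1594 CPM in Vec. All 13 tested were lower in CCND2mut and 7 lower in CCND2wt against Vec. Rag1 was at 0 in all CCND2mut libraries, and Ms4a1, Pax5, Ebf1, Igll1 and Vpreb3 were at 0 in at least 1 of them. Hvcn1 was highest in CCND2wt, where B cell sums were at most 47.6 CPM. Mast cell and basophil markers summed to 1861 to 16320 CPM in CCND2mut, 17930 to 18700 CPM in CCND2wt, and 8222 to 11110 CPM in Vec. The stem and progenitor list gave 518 to 1504 CPM in CCND2mut, 3544 to 3550 CPM in CCND2wt, and 2586 to 3353 CPM in Vec. Its lowest group was thus also the lowest for Hvcn1, as it was for the erythroid and megakaryocyte sums given below. Within Vec the order differed, since Vec 1 had the lowest stem and progenitor sum (2586 CPM) and the highest Hvcn1 (37.4 FPKM). The part of these cells in the Hvcn1 levels was not tested. Erythroid, megakaryocyte, and T and NK cell sums were 148 to 448, 30.8 to 80.6 and 45.8 to 70.1 CPM in CCND2mut, 1571 to 1683, 375 to 389 and 34.9 to 45.4 CPM in CCND2wt, and 1005 to 16310, 390.5 to 505 and 71.3 to 158 CPM in Vec.

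Ncf4 and Rac2 lie 296587 bases apart on chromosome 15, and genes of that chromosome were higher in the libraries labelled CCND2mut. Of 417 protein-coding genes there that averaged 5 CPM or more, 57.1% were called higher and 13.2% lower in CCND2mut against Vec, with a median log2 fold change of 0.66. Over 10244 such genes of all chromosomes these were 30.8%, 27.1% and 0.06. By library, the median difference of chromosome 15 genes from the Vec mean was 0.649, 0.584 and 0.635 in CCND2mut 1, 2 and 3, and -0.058 to -0.004 in the other 6 libraries. Rac2, at 0.85, stood 0.19 above the median of its chromosome, and 172 of the 417 genes had a larger value. Ncf4, at 1.67, stood 1.01 above it, with 47 genes above. For CCND2wt against Vec the chromosome 15 median was -0.03. How far the level of Rac2 follows its chromosome was not tested.

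Near Rac2 the values varied. Of 24 tested protein-coding genes within 500000 bases, Ncf4 included, 11 were higher and 2 lower in CCND2mut against Vec, with a median of 0.70. The nearest on either side, C1qtnf6 and Cyth4, stood at -0.69 and 0.00 (edgeR adjusted p = 0.397 and 0.978), and the next, Il2rb and Elfn2, at -3.66 and 5.29. Around Ncf4, 9 of 18 genes were higher and 2 lower (median 0.84), with Ift27 and Eif3d at 1.04 and 1.10, and the cytokine receptor genes Csf2rb2 and Csf2rb at 0.33 and 0.83. In CCND2wt against Vec, where Ncf4 fell by 5.23, 1 of those 18 was higher and 3 were lower, with a median of -0.33.

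**Figure D5:**
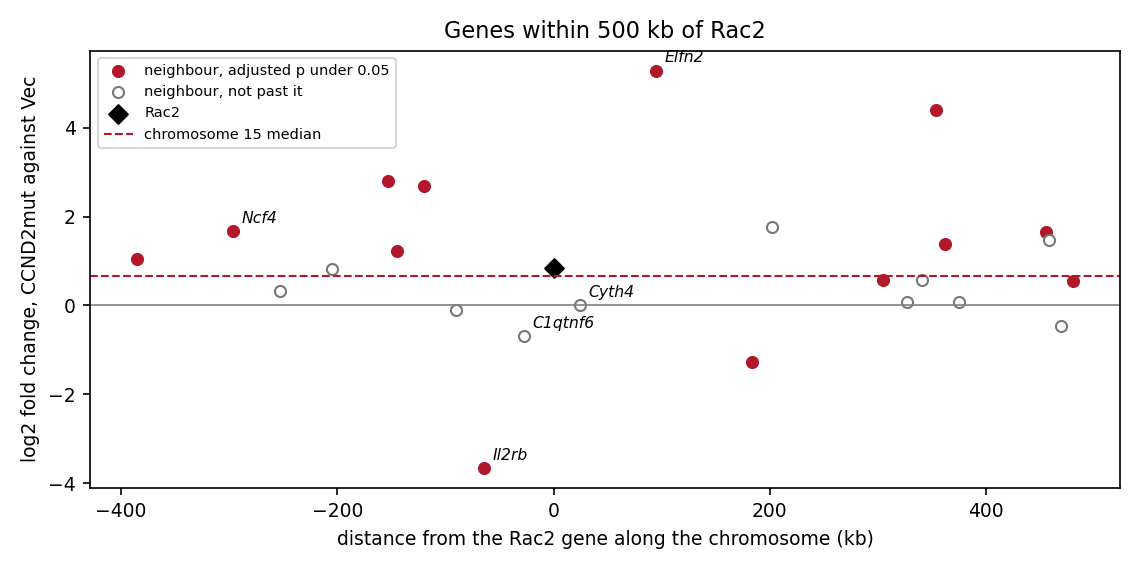
Log2 fold change for CCND2mut against Vec of the 24 tested protein-coding genes within 500000 bases of Rac2, by their distance from Rac2 along the chromosome (kb), with filled points for an edgeR adjusted p under 0.05. Rac2 at 0.85 and Ncf4 at 1.67 lie above the dashed chromosome 15 median of 0.66, while the nearest neighbours lie at -0.69 and 0.00.

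The chromosomes of the other oxidase genes did not show such a shift. For CCND2mut against Vec the medians were 0.07 on chromosome 5, which carries Ncf1 and Hvcn1, 0.07 on chromosome 8 and -0.16 on chromosome X. Ncf1 lay beside Gtf2i (-0.65) and Gtf2ird2 (-0.29), and of its 10 tested neighbours within 500000 bases 2 were higher and 7 lower. Hvcn1 lay between Tctn1 (-0.43) and Ppp1cc (0.04), and 2 of 19 neighbours were higher and 4 lower. Of the 3 tested genes near Cybb, Dynlt3 (-1.03) and Xk (-0.61) were lower in CCND2mut against Vec and Lancl3 (-1.88) was not called. Cyba lay next to Mvd, of cholesterol synthesis, which rose by 1.03 in CCND2mut and fell by 1.34 in CCND2wt against Vec. Of 16 genes near Cyba, 6 were higher and 4 lower in CCND2mut.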

How the data were processed

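RNA of 9 mouse bone marrow libraries was measured by sequencing, 3 for each of the labels CCND2mut, CCND2wt and Vec, and joined to groups by their titles. TRIzol extraction of total RNA and the NEBNext Ultra library kit are named in the labels' protocols. The values deposited by the authors are raw read counts per gene. The submitters' processing notes name CASAVA 1.8, fastp, HISAT2 2.0.5, mm10, featureCounts 1.5.0-p3 and DESeq2 1.20.0. Annotation release, strand setting and handling of multi-mapped reads: not given in the sources used here. Coordinates and gene lengths are those of the deposited table.

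Genes were filtered with filterByExpr, scaled by TMM (factors 0.894 to 1.09), and all 9 libraries were fitted together in edgeR 4.0.16 (R 4.3.3) with a robust quasi-likelihood test and Benjamini-Hochberg adjustment over 15660 genes. SE is the log2 fold change divided by the square root of F. FPKM is CPM divided by gene length in kilobases. At 15043755 to 17593634 counts per library, the fewest counts behind a level of the 6 genes were 20. The fit was also tested on counts simulated from these libraries with known changes.

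The 6 genes and 18 lists that include them (250 genes, 228 tested) were chosen with earlier results of these data known. In lists around the oxidase, named genes were the up to 4 with the smallest adjusted p in each comparison with Vec; in marker lists, the most abundant and those at 0; others were the 3 most correlated genes and the 2 nearest on each side. Only some are used. Alternatives were RLE factors, DESeq2 1.42.0, limma-voom (limma 3.58.1), other filters and scalings, a replicate term and left-out libraries; list counts without Vec 1 and by other tools were added after seeing the data. No sequences were used here. Some genes and 1 gene list are not reported here.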

Additional observations from a re-analysis of the deposited data

How the results depend on the processing

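The number of oxidase genes called was recomputed under 21 other settings per comparison. For CCND2mut against Vec, 3 genes were higher, and 4 where Ncf1 was added (limma-voom, the replicate block, without Vec 1, and Vec 1 and CCND2mut 1 both left out). The count of lower genes, 1, was 2 with the replicate block and with Vec 1 and CCND2mut 1 both left out (Cybb added), and 1 to 2 with 1 library left out. For CCND2wt against Vec, the 2 lower genes were 1 under limma-voom, no filter, only the groups compared and the 1.5-fold limit, 1 to 3 with 1 library left out, and 0 with the CCND2wt libraries summed, where the 1 higher gene was 0 as well. For CCND2mut against CCND2wt, the 4 higher genes were 2 with CCND2wt summed (Ncf1 and Rac2 lost), and Rac2 was also lost at the 1.5-fold limit (edgeR adjusted p = 0.0853). With CCND2wt summed, the calls of transcription factors and signalling genes in CCND2wt against Vec were lost too, and 3 of 13 NADPH supply genes were higher in CCND2mut against CCND2wt (10 of 12 otherwise). Cybb in CCND2mut against CCND2wt changed sign to -0.46 with the replicate block, -0.19 without CCND2mut 1 (-0.19 to 2.07 with 1 library left out) and -0.20 with Vec 1 and CCND2mut 1 both left out. Rac2 in CCND2wt against Vec was -0.014 without Vec 2 (-0.014 to 0.24 with 1 library left out). The cause of these shifts was not tested.

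Over all genes, 3906 higher and 4213 lower for CCND2mut against Vec became 2113 and 2716 at the 1.5-fold limit. For CCND2wt against Vec, 1520 and 1418 became 953 and 683 with the replicate block, 576 and 451 at the 1.5-fold limit and 26 and 13 with CCND2wt summed; higher genes were 2390 with Vec 1 and CCND2mut 1 both left out. For CCND2mut against CCND2wt, 3633 and 3727 became 803 and 1575 with CCND2wt summed, and 1893 and 2407 at the 1.5-fold limit. With 1 library left out, CCND2wt against Vec gave 615 to 1958 higher and 404 to 1859 lower genes, the lowest without a CCND2wt library. Deviations of same-numbered libraries were weakly correlated (-0.124 to 0.198), highest for Vec 1 and CCND2mut 1. With so few libraries per group, such values cannot show whether libraries were paired, and the labels state no pairing. With the block, Cybb was called against Vec in both comparisons (-2.36 in CCND2mut and -1.89 in CCND2wt). Ncf1 was then called in CCND2mut and not in CCND2wt (1.92 and -1.61).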
